A study of Mus musculus with 4 samples.

Results

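Genes whose names begin with Gm followed by a number, or end in Rik, are predicted mouse genes and RIKEN cDNA clones that had no functional name when the annotation was made. They include noncoding RNAs, pseudogenes, small RNAs and protein-coding genes. The H3K36me3 peaks that the authors' annotation assigned to such a name on chromosomes 1 to 19, outside the intergenic class, are described here. There were 14131 of these peaks in the cKO library, among 91762 genic autosomal peaks and 95750 peaks in all. The WT library had 4916, among 35858 genic autosomal peaks and 36820 in all. They carried 2689 names in cKO and 1634 in WT, and 2831 names in either library. Gm names accounted for 10931 cKO and 3834 WT peaks, and Rik names for 3200 and 1082. Another 672 cKO and 223 WT peaks had a name of this form but were classed as intergenic, and 277 and 39 lay on other chromosomes.

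The peaks came from chromatin immunoprecipitation and sequencing (ChIP-seq) of neural progenitor cells from mouse forebrain at embryonic day 13. The cKO embryos carried a brain-specific deletion of H2A.z1, one of the genes of the histone variant H2A.Z, and the WT embryos were wild type. Both were on the C57BL/6 background, and the labels name neither the Cre driver nor the number of embryos. The series concerns cortical neurogenesis. Each genotype had 1 ChIP library and 1 input library, so no difference between genotypes could be tested and every one of them is a difference between 2 libraries. Ranges in brackets after a share are its 95% limits by the exact Clopper-Pearson method; they account for counting error and nothing else. Whether fewer marked cells or less mark per cell lie behind a difference cannot be told apart in such libraries.

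H3K36me3 is laid down by SETD2, which travels with elongating RNA polymerase II, and it accumulates over the bodies of transcribed genes towards their ends. It carries no strand, so where a noncoding gene lies inside or against a coding gene, a peak there does not tell which of them was transcribed. Long noncoding RNAs (lncRNAs) of forebrain progenitors include the precursors of miR-9, a microRNA known for its part in the progenitor-to-neuron transition.

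The ChIP libraries held 32927164 (cKO) and 31984670 (WT) tags and the inputs 35026817 (cKO) and 38500353 (WT), yet the genic autosomal peaks summed to 67.0 Mb in the cKO list and 13.01 Mb in the WT list. The peak calls also differed in fragment length, 185 bp in cKO and 152 bp in WT. Its part in widths and covered bases was not tested. Over the deleted gene, annotated as H2az1, peaks covered 21.1% of the span in cKO and 7.80% in WT. The labels do not say which part was deleted, so this does not check the genotype. Sox2, Pax6, Nes, Vim, Lhx2 and Hes5, genes of forebrain progenitors, each had a peak in both libraries. In Hes5 and Lhx2 peaks bore a Gm name. The single peak in Hes5, a Notch target, was named Gm20421 in both libraries. In Lhx2, a cortical selector gene, 7 of 11 cKO peaks and 9 of 12 WT peaks were named Gm13584.

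Sequences that the results return to are shown first, from RefSeq (GRCm38.p6). The microRNAs come from hairpins inside noncoding genes of this naming that lay under a peak, and from Mir100hg, whose hairpins lay under none. Capitals mark the seed, bases 2 to 8.
mmu-miR-9-5p: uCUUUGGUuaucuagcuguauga
mmu-miR-9-3p: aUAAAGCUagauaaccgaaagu
mmu-miR-9b-5p: uUCGGUUAucuagcuuuauga
mmu-miR-9b-3p: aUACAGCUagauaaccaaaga
mmu-miR-3093-5p: cGCACCCCgcggagcucacacu
mmu-miR-302b-3p: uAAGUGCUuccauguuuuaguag
mmu-miR-302d-3p: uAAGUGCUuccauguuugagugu
mmu-miR-367-3p: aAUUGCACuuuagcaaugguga
mmu-miR-100-5p: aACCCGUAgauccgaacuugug
mmu-miR-125b-5p: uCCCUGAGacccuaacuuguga
In this set miR-302b-3p and miR-302d-3p shared the seed AAGUGCU, and the remaining ones each had a seed of their own. The miR-9b hairpin, named Gm25641, lies on the minus strand of chromosome 3 against the Mir9-1 hairpin on the plus strand, and so under the same peaks.

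The other sequences are windows around annotated starts, from 250 bases before to 50 after, of 3 genes in which the edge of a WT peak fell inside the window. They were picked after their values were seen. Capitals mark the bases inside a WT peak. In all 3 the whole window of 300 bases lay inside a cKO peak.
Gm13584, chr2:38368796-38369095, minus strand, in the coding gene Lhx2: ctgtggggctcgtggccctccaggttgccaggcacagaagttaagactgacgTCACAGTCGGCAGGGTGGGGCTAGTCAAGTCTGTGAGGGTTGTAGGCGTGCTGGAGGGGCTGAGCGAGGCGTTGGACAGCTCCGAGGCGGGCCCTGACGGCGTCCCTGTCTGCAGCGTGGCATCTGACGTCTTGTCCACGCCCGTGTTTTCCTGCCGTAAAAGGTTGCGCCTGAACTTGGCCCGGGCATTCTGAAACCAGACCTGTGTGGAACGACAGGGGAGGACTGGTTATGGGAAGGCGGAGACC
A630072L19Rik, chr12:100938883-100939182, plus strand, in the coding gene Ccdc88c: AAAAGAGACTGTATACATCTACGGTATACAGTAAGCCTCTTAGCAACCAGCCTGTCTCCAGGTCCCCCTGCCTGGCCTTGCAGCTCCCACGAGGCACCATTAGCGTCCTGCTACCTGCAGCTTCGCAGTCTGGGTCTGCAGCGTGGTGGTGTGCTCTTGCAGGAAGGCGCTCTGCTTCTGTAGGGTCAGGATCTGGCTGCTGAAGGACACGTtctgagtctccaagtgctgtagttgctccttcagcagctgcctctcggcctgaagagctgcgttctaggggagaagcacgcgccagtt
1700092M07Rik, chr19:8740468-8740767, plus strand, overlapping the coding gene Wdr74: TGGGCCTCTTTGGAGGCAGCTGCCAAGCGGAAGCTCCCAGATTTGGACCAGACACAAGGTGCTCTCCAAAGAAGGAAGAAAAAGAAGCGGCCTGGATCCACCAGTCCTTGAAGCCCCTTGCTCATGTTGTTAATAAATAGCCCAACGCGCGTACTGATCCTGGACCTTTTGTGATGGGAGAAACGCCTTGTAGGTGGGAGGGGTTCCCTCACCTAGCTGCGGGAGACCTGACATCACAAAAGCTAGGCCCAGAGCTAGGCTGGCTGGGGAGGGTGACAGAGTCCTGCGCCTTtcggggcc
WT peaks held 248, 212 and 292 of the 300 bases of these windows, in the order shown. The window of Gm13584 had 19 CpG dinucleotides, that of A630072L19Rik 11 and that of 1700092M07Rik 9.

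Among peaks whose Gm or Rik name was found in RefSeq, most did not lie on the named gene. Of the 2831 names, 1446 were found in RefSeq by symbol and 245 by a synonym, and 1140 were not matched. Among cKO peaks with a matched name, 2614 of 8611 overlapped the span of the named gene (30.4%, 29.4 to 31.3). Among WT peaks it was 940 of 3042 (30.9%, 29.3 to 32.6). Genic peaks with other names lay on their named gene in 80.3% of cases in cKO and 78.7% in WT. Most of the Gm and Rik peaks lay inside a protein-coding gene of another name, with 82.4% in cKO (81.7 to 83.0) and 81.6% in WT (80.5 to 82.7), against 20.2% and 21.6% of the other genic peaks. For unmatched names the coding gene may be the same locus under a newer name, and that share was 94.3% in either library for them. The annotation takes the class of a peak (intron, exon, end or promoter) and its name from separate transcripts. They were the same transcript for 16.9% of Gm and Rik peaks in cKO and 21.1% in WT, against 33.1% and 34.1% of other genic peaks.

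How often a peak lay on the named gene differed between kinds of gene. Of the matched names, RefSeq called 676 pseudogenes, 346 lncRNAs, 338 protein-coding genes and 330 small RNAs, and 1 was of another kind. Peaks named for protein-coding genes lay on them in 67.9% of cases in cKO (65.8 to 69.9) and 63.9% in WT (60.2 to 67.5). For lncRNAs the share was 27.5% in cKO and 27.0% in WT, and for pseudogenes 22.6% in cKO and 31.2% in WT. Peaks named for small RNAs (nuclear, nucleolar and micro RNAs) lay on them in 4.72% of cases in cKO (3.84 to 5.74) and 4.96% in WT (3.55 to 6.72). The median distance of an off-gene peak from the named gene was 9525 bp in cKO and 7872 bp in WT.

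**Figure D1:**
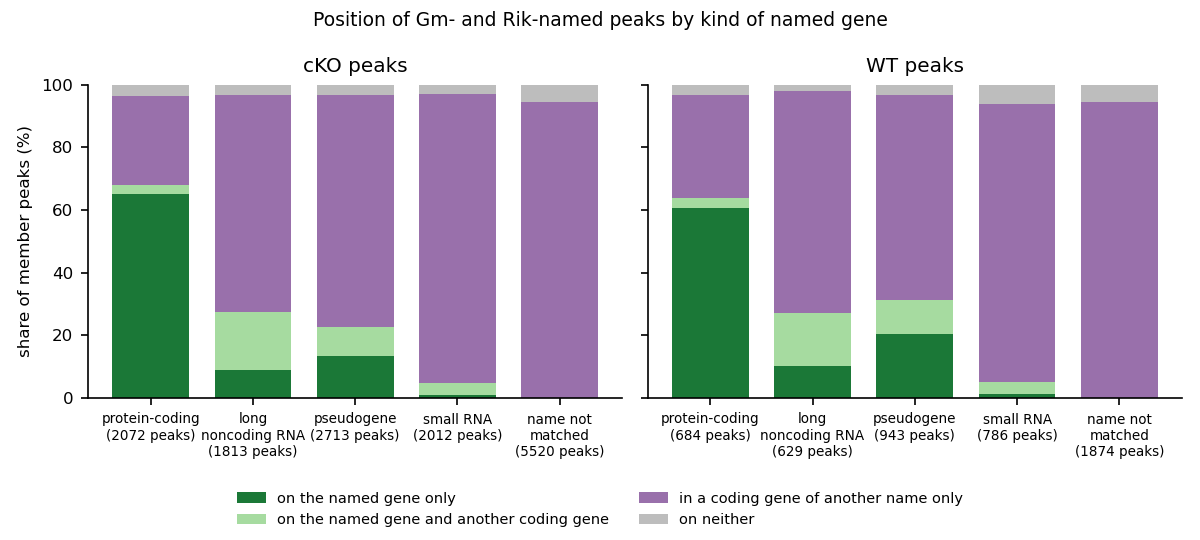
Share of member peaks (%) by position, for cKO (left) and WT (right), split by the kind of gene that RefSeq gives for the name; the number of peaks stands under each bar, and 1 cKO peak of another kind is not drawn. Dark and light green parts together, on the named gene, make up 67.9% of cKO and 63.9% of WT peaks for protein-coding names, and 4.72% and 4.96% for small RNAs.

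Peaks named for a Gm or Rik gene were then counted in protein-coding genes other than the named one, leaving out coding genes whose RefSeq symbol is itself of this form. Chd9, a chromodomain helicase, held 58 cKO and 26 WT peaks, all of them named Gm22428 or Gm6658 and none named Chd9. Xrn1, the cytoplasmic exoribonuclease, held 66 cKO peaks, 54 of them named Gm16794, and 12 WT peaks, 10 of them with that name. None of its peaks was named Xrn1 in either library. Clasp1, which binds growing microtubule ends, held 53 such peaks of 104 in cKO and 23 of 44 in WT. Ash1l, a methyltransferase for mono- and dimethylation of H3K36, held 51 of 57 in cKO and 15 of 21 in WT. Ppp6r3, a regulatory subunit of protein phosphatase 6, held 48 of 51 in cKO and 21 of 21 in WT, all named for the small nuclear RNA gene Gm23940.

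Further genes with many such peaks had various roles. Cnot1, the scaffold of the CCR4-NOT deadenylase, had 42 of 47 cKO peaks and 26 of 37 WT peaks with Gm or Rik names and none with its own. Nipbl, the cohesin loader, had 35 of 43 cKO peaks and 10 of 11 WT peaks named 2410089E03Rik, after its neighbour. Melk, a kinase of proliferating progenitors, had 36 of 39 in cKO and 5 of 5 in WT. Blm, a RecQ helicase, had 34 of 34 in cKO and 3 of 3 in WT. Fbn1, which encodes fibrillin, had 33 of 33 in cKO and no peak in WT. Among protein-coding genes with a genic peak and a symbol of another form, 677 of 9099 in cKO (7.44%, 6.91 to 8.00) and 585 of 6660 in WT (8.78%, 8.11 to 9.49) held Gm or Rik peaks and no peak of their own name. In 486 cKO and 478 WT genes every peak was of that kind.

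**Figure D2:**
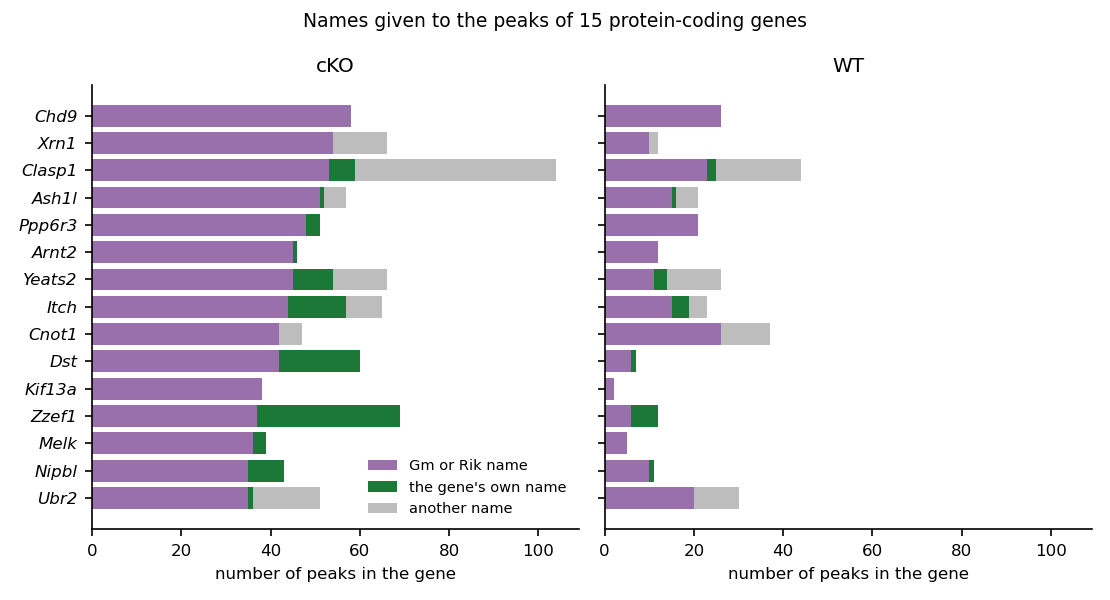
Number of peaks in the 15 protein-coding genes with the most cKO peaks named for another gene of Gm or Rik form, for cKO (left) and WT (right) on the same axis; genes whose own symbol has that form are left out. Purple marks Gm or Rik names of another gene, green the gene's own name and grey other names; Chd9 has 58 purple peaks in cKO and 26 in WT, and no others.

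Read from the genes in place of the names, peaks were found on few predicted genes that stand apart from coding genes. RefSeq lists 7503 Gm and Rik lncRNA genes that overlap no other protein-coding gene on these chromosomes. A peak overlapped 92 of them in cKO (1.23%, 0.990 to 1.502) and 53 in WT (0.706%, 0.530 to 0.923). Of the 2494 nested inside a coding gene, 15.96% had a peak in cKO (14.5 to 17.5) and 7.54% in WT (6.53 to 8.64). Pseudogenes gave 19.99% (nested) and 6.70% (apart) in cKO, and 8.16% and 3.17% in WT. Small RNAs gave 18.0% and 1.60% in cKO, and 5.50% and 1.12% in WT. Protein-coding genes still named Gm or Rik were marked in 16.3% of 1350 cases in cKO and 8.74% in WT, against 47.5% and 34.8% of 19210 other protein-coding genes. These comparisons hold within each library, and gene length differs between the groups. Among genes that stand apart, the median span was 8410 bp for lncRNAs, 949 bp for pseudogenes and 108 bp for small RNAs. Protein-coding genes named Gm or Rik had a median span of 7676 bp, and other protein-coding genes 18468 bp.

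**Figure D3:**
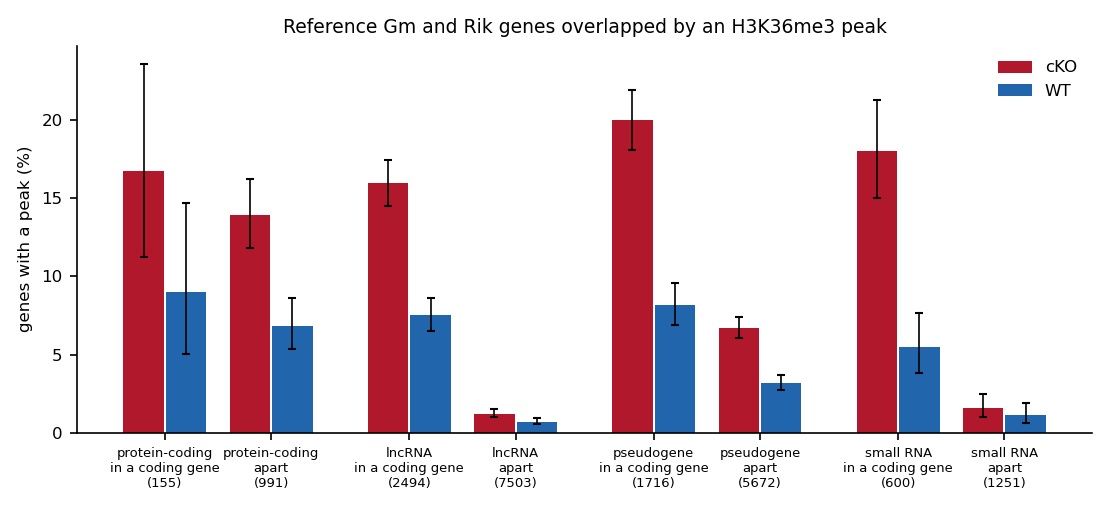
Share of RefSeq Gm and Rik genes (%) overlapped by a peak in cKO (red) and WT (blue), by kind and by whether the gene lies inside a protein-coding gene or apart from any; bars are shares, lines exact 95% intervals, and the number of genes stands below. LncRNAs apart from coding genes stand at 1.23% in cKO and 0.706% in WT, and nested ones at 15.96% in cKO and 7.54% in WT.

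Whether a nested gene had a peak went with peaks elsewhere in its host. Of 1291 lncRNAs in a coding gene that had another peak not touching them, 29.6% had a peak in cKO (27.1 to 32.2). In hosts with no other peak it was 16 of 1203 (1.33%, 0.762 to 2.15). In WT the shares were 18.0% of 910 and 1.52% of 1584. Pseudogenes gave 31.7% and 6.11% in cKO, and 14.8% and 3.56% in WT. Strand was known for some nested lncRNAs and their hosts. Those on the strand of the host were marked in 23.9% of 184 cases in cKO (17.9 to 30.7) and 8.70% in WT, and those on the other strand in 16.7% of 1332 in cKO (14.8 to 18.9) and 7.96% in WT.

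Annotated starts of these genes were seldom under a peak when they stood apart from coding genes. A peak overlapped 9 of 6926 such lncRNA windows in cKO (0.130%) and 3 in WT (0.0433%). Of 2093 windows of nested lncRNAs, 197 were overlapped in cKO (9.41%, 8.19 to 10.7) and 61 in WT (2.91%, 2.24 to 3.73). For protein-coding genes of other names that stood apart the shares were 0.605% in cKO and 0.104% in WT, of 15374 windows. The Gm13584 and A630072L19Rik windows printed above belong to the nested group: their peaks were 838 and 1514 bp wide in cKO and 370 and 290 bp wide in WT, and were classed as exon and intron. In contrast, 1700092M07Rik is a protein-coding gene that stands apart, and only its window, not the gene, overlaps Wdr74. That window was in a cKO peak of 1868 bp and a WT peak of 344 bp, both classed as promoter.

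Noncoding genes that stood apart and carried the mark in both libraries numbered 35 among lncRNAs. Bases were counted here on each gene's own span under peaks of any name, unlike the bases per name given further on. Their covered bases in cKO were a median of 2.59 times those in WT (quartiles 1.57 and 4.33), and 34 of the 35 had more in cKO. For 5024 protein-coding genes of other names that stood apart the median was 5.67 (quartiles 3.32 and 9.85), and for 167 nested Gm and Rik lncRNAs it was 4.86. The 17 other lncRNAs that stood apart had 2.26. More bases in cKO were seen for 4983 of the 5024 coding genes, 166 of the 167 nested lncRNAs and all 17 other lncRNAs. The 157 Gm and Rik pseudogenes that stood apart had a median ratio of 2.11, with more bases in cKO for 140 and in WT for 17. Median coverage of the span in WT was 3.93% for the 35 lncRNAs and 4.59% for the coding genes. It was 7.38% for the nested lncRNAs, 16.8% for the 17 other lncRNAs and 19.1% for the pseudogenes. Whether coverage in WT bears on these ratios was not tested, and no gene was matched for it here.

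Gm3764 is the precursor of Mir9-1 on chromosome 3 (88206673 to 88229959, plus strand). Peaks covered 13466 bp of its 23287 bp in cKO and 13227 bp in WT, or 57.8% and 56.8%. There were 10 peaks in cKO and 12 in WT. The widest of the cKO peaks had 4320 bp and the widest of the WT peaks 3675 bp, which was also the widest Gm or Rik peak of the WT list. The Mir9-1 hairpin lay wholly inside a cKO peak of 1813 bp and a WT peak of 2171 bp, and so did Mir3093. The WT peak was named Gm25641, for the miR-9b hairpin against it, and the cKO peak Mir3093. Under the name Gm25641 peaks held 595 bp in cKO and 3820 bp in WT, while its 58 bp span was wholly covered in both libraries.

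C130071C03Rik, the precursor of Mir9-2 on chromosome 13 (83721381 to 83741308, plus strand), was covered over 28.9% of its span in cKO and 23.8% in WT. Its 11 cKO peaks amounted to 5752 bp and its 10 WT peaks to 4743 bp. Mir9-2 lay in a peak of 1919 bp in cKO and 1937 bp in WT, with nearly the same edges (83737176 to 83739094 in cKO, 83737178 to 83739114 in WT). The remaining copy, Mir9-3 on chromosome 7, was touched by a peak of 292 bp in cKO and 255 bp in WT. Both peaks overlapped the Mir9-3 hairpin in part, whereas Mir9-1 and Mir9-2 lay wholly inside peaks in each library.

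Mir100hg, named 2610203C20Rik in the files, is a long host gene on chromosome 9 for miR-100, let-7a and miR-125b. Under the Rik name it had 5 peaks of 5188 bp in cKO and 5 peaks of 4051 bp in WT, a ratio of 1.28. These 5 peaks lay in a short stretch near the end of the gene (41586363 to 41593675), and over the whole span coverage was 2.52% in cKO and 1.70% in WT. No peak overlapped its hairpins. The nearest to Mir125b-1 was 4361 bp away in cKO and 4831 bp in WT, and the nearest to Mir100 was 8495 bp away in cKO and 55329 bp in WT.

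**Figure D4:**
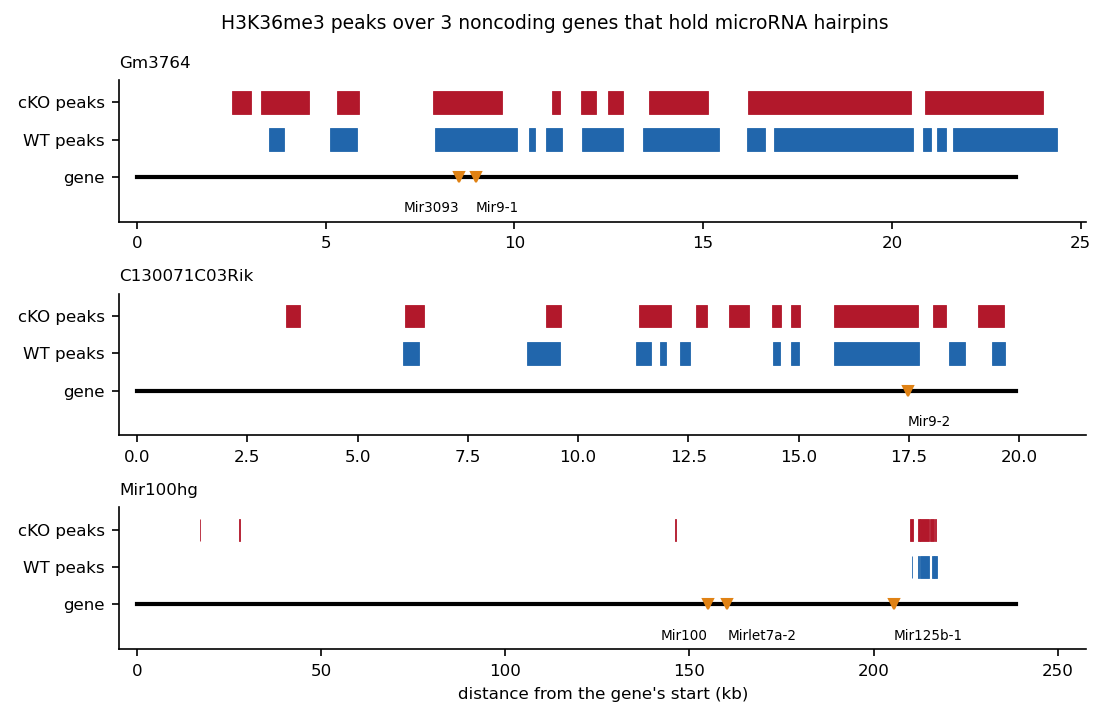
Peaks of cKO (red, upper row) and WT (blue, lower row) along Gm3764, C130071C03Rik and Mir100hg, by distance from the gene's start (kb); triangles mark microRNA hairpins. Peaks of both libraries cover Mir9-1 and Mir9-2, and in Mir100hg they gather after Mir125b-1 near the gene's end, with 3 further short peaks in cKO.

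In all, 62 hairpins lay inside Gm or Rik noncoding genes on the same strand or with the host's strand unknown. Counting a single host for each hairpin gave 44 genes. Peaks overlapped 14 hairpins in cKO and 4 in WT. Those in WT were Mir9-1, Mir9-2, Mir3093 and part of Mir367. The 5 hairpins of the miR-302 and miR-367 cluster lie in Gm51018, inside the coding gene Larp7. A cKO peak covered all 5 of them, while the WT peak there covered 51 of the 75 bases of Mir367 and ended 68 bp from Mir302d. The cluster is known from pluripotent cells, and Larp7 binds the 7SK RNA. Mir101a in E130102H24Rik and Mir1839 in 2900076A07Rik were under a peak in cKO, and their hosts had none in WT.

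Other noncoding genes that stood apart varied widely. 1500004A13Rik on chromosome 3 was covered over 71.9% of its span in cKO and 46.7% in WT (19586 and 12727 bp). It overlaps 5830417I10Rik, a transcribed pseudogene with 74.7% and 35.7%, so most of these peaks are the same ones. 5830417I10Rik was the name with the most WT peaks, 34, and had 24 in cKO. At the other end, 1600020E01Rik on chromosome 6 had 24 peaks of 10754 bp in cKO and 1 peak of 314 bp in WT, a ratio of 34.2. Gm1976 on chromosome 17 had 13546 bp in cKO and 1574 bp in WT. On chromosome 8 the spans of 3 pseudogenes near one another, Gm21811, Gm21092 and Gm6483, were covered over 76.0% to 89.1% in cKO and 2.25% to 7.73% in WT. Such copies can share reads, so their values are uncertain.

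Protein-coding genes that still carried a Gm or Rik name had more coverage towards their ends, as other coding genes did. In 108 of them with a peak in both libraries and a length of at least 5 kb, mean coverage was 5.64% in the first of 10 equal parts of the gene and 48.6% in the ninth in cKO. In WT it was 0.887% in the first part and 10.9% in the last. Other genes (4964) had 3.08% and 50.7% in the first and the ninth part in cKO, and 0.508% in the first and 12.9% in the last in WT. Median coverage of the gene was 29.1% in cKO and 3.34% in WT, against 30.3% and 4.16% for the other genes.

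From a list of 16 such coding names, 14 had a peak in cKO and 12 in WT. Peak numbers given for them are of peaks with that name, while coverage of the gene counts peaks of any name. 2410089E03Rik, now Cplane1, which acts in ciliogenesis, had the most peaks of all names in cKO, with 116 there and 28 in WT. Only 59 cKO and 11 WT peaks lay on Cplane1 itself, and 56 and 15 were in Nipbl or Nup155 alone. Its own span was covered over 34.2% in cKO and 4.00% in WT. Gm15800, now Hectd4, had 53 cKO and 27 WT peaks, all on the gene, with coverage of 44.0% and 9.71%. 2610507B11Rik was covered over 80.6% in cKO, by 15 peaks of any name, and over 27.7% in WT, by 21.

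Shorter or less covered members of the list showed the same order. 2810417H13Rik, now Pclaf, a PCNA-binding factor of dividing cells, was covered over 34.9% in cKO and 5.60% in WT. Its 4 cKO and 2 WT peaks of that name also overlapped Trip4. 2700094K13Rik, the selenoprotein gene Selenoh, had 21.8% and 11.7%. 4932438A13Rik had 20 peaks in cKO and 1 in WT, with coverage of 3.82% and 0.0937%. 3110043O21Rik, the mouse C9orf72 gene, had 4 peaks in cKO and none in WT, and 2310035C23Rik, now Relch, had 2 and none. No peak carried the names 1110037F02Rik or 2900026A02Rik in either library. Of 10 noncoding names on a second list, 5 had a peak in cKO and 4 in WT, among them C130071C03Rik and 2610203C20Rik.

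Summed over all names, member peaks held 9.29 Mb in cKO against 1.72 Mb in WT. Median width was 412 bp in cKO (quartiles 268 and 734) and 262 bp in WT (192 and 391), against 446 and 273 bp for other genic peaks. The smallest width was 185 bp in cKO and 152 bp in WT, the fragment length of each call. Within the cKO list the authors' fold enrichment over input had a median of 5.17 for Gm and Rik peaks and 5.25 for the others, and within the WT list it was 5.00 for either. Introns held 61.8% of the peaks in cKO and 49.2% in WT, exons 18.8% and 27.3%, transcript ends 14.2% and 16.05%, and promoters 5.16% and 7.51%. Exons held fewer of the other genic peaks, 15.5% in cKO and 22.6% in WT. Gm and Rik peaks made up 15.4% of genic autosomal peaks in cKO (15.2 to 15.6) and 13.7% in WT (13.4 to 14.1). By chromosome the share ran between 13.5% on chromosome 2 and 18.7% on chromosome 12 in cKO, and between 11.4% on chromosome 2 and 18.9% on chromosome 12 in WT.

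In cKO 24.1% of the Gm and Rik peaks were overlapped by a WT peak (23.4 to 24.8), and in WT 94.0% were overlapped by a cKO peak (93.3 to 94.6). For other genic peaks these shares were 26.1% and 96.9%. Of the 4621 overlapped WT peaks, 4413 met a cKO peak of the same name (95.5%).

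For 1492 names with peaks in both libraries, the median of covered bases was 3697 bp in cKO and 596 bp in WT. The median difference was 2957 bp (quartiles 1117 and 5800). The median ratio was 4.97 for these names and 5.59 for the 6489 other names. By kind it was 5.72 for protein-coding genes, 5.70 for lncRNAs, 5.35 for small RNAs and 3.84 for pseudogenes. For all of these kinds except the first, most member peaks lay off the named gene. At least 2 times the bases in cKO was seen for 1277 of the 1492 names (85.6%, 83.7 to 87.3), and the same held for 90.0% of all 7981 names. At least 2 times the bases in WT was seen for 19 names (1.27%, 0.768 to 1.98), against 0.551% of all names. In the first case the share of Gm and Rik names was somewhat below that of all names, which include them. The second case rests on few names.

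**Figure D5:**
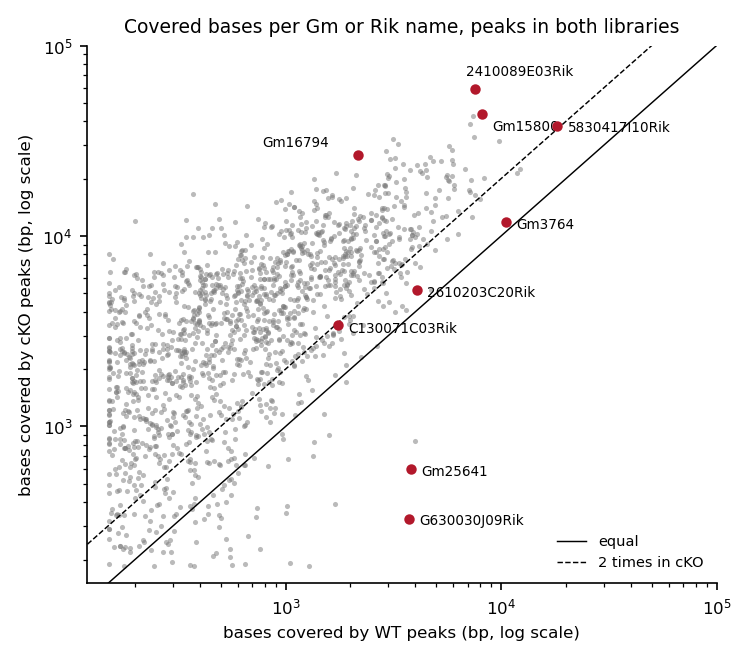
Bases covered by peaks per Gm or Rik name in cKO (vertical, log scale) against WT (horizontal, log scale), 1 point for each of 1492 names; the solid line marks equal values and the broken line 2 times as many in cKO, and red points are labelled names. Most points lie above the broken line, while Gm3764 and 2610203C20Rik lie near the solid line and Gm25641 and G630030J09Rik lie below it.

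The names with the largest differences sat in coding genes. After 2410089E03Rik (59313 bp in cKO, 7543 bp in WT) and Gm15800 (43483 and 8178 bp) came Gm23940 in Ppp6r3 (42483 and 7386 bp) and Gm22710 in Clasp1 (38629 and 7171 bp). Gm16794, named for an lncRNA but lying in Xrn1 with all of its 54 cKO and 10 WT peaks, had 26551 bp in cKO and 2168 bp in WT. At the other end, G630030J09Rik in Gramd1a had 326 bp in cKO and 3732 bp in WT. All 4 WT peaks of that name were overlapped by cKO peaks, while its 1 cKO peak met no WT peak. The difference is therefore in peaks by name, and those WT places were marked in cKO too. Gm25632, a small nucleolar RNA gene in Prrc2b, had 839 bp in cKO and 3967 bp in WT, and its own span of 85 bp was wholly covered in both libraries.

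Names found in 1 library alone were common in cKO. They numbered 1197 of 2831 in cKO (42.3%, 40.5 to 44.1) against 32.1% of all 12267 names, and 142 in WT (5.02%, 4.24 to 5.89) against 2.82% of all names. Both shares were above those of all names. Such a name need not mean that the place was unmarked in the other library. Of the 142 names found in WT alone, 44 (31.0%, 23.5 to 39.3) had each of their peaks overlapped by a cKO peak, mostly of another name and for Gm13015 of the same name in a class left out here, and 98 had none overlapped. Of the 1197 in cKO alone, 10 (0.835%) had each peak overlapped in WT and 1174 had none. These overlaps were not counted for names of other forms, so they do not show a trait particular to Gm and Rik names.

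The 5 WT-alone names with the most bases all belonged to the overlapped kind. Gm25835, a small nucleolar RNA gene in Eif4a1, had 1 WT peak of 3263 bp, and the cKO peak over it was named Gm24029. The peaks of Gm23442 (4 peaks, 2609 bp) lay in Prrc2a and their cKO partners were named Prrc2a. Those of Gm11583 (2472 bp) and Gm15976 (1748 bp) met cKO peaks named Kpnb1 and Atp5o. The 5 cKO-alone names with the most bases had no peak overlapped in WT. They were Gm26646 in Ap3s2 (23 peaks, 11038 bp), Gm14003 in Fbn1 (29 peaks, 10477 bp), Gm13770 in Lrp4 (12 peaks, 8666 bp), Gm26789 in Herc4 (22 peaks, 8553 bp) and Gm25197 in Trip13 (14 peaks, 8387 bp). Fbn1 encodes a matrix fibril protein, Lrp4 a receptor and Trip13 an ATPase of the mitotic checkpoint.

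The strongest peaks, by the authors' -log10 q within a list, also lay in coding genes. In cKO they were Gm17349 in Smarcd1 (86.4), Gm10190 in a stretch shared by Sos1 and Arhgef33 (84.1), Gm5434 in Bzw2 (79.8), Gm16103 in Uxs1 (74.6) and 1600029I14Rik in Armc8 (72.3). In WT the first 2 were Gm16103 in Uxs1 (88.6) and Gm5434 in Bzw2 (85.4), both at the positions of the cKO peaks. The Gm16103 peak spanned 43777517 to 43779037 of chromosome 1 in cKO and 43777530 to 43779035 in WT. Its local background, recovered from pileup and fold, was 47.9 tags in cKO and 9.14 tags in WT. The part of that background in the peak was not tested. The widest cKO peak, named Gm13054, spanned 16583 bp of Clcn6. The same name had 12 peaks of 6072 bp in WT. Other wide cKO peaks overlapped Ddx39b (11680 bp, Gm25128), both Eif3d and Foxred2 (10511 bp, Gm17638), Top2a (10191 bp, Gm26394) and Chd4 (9705 bp, Gm23751).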

How the data were processed

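H3K36me3 ChIP-seq and input libraries of cKO and WT forebrain progenitors were used. The submitters' processing notes name Bowtie2 2.2.9, FastQC, bedtools and the mm10 build. Peaks were called per genotype against an input as narrow peaks with MACS (2.1.1.20160309 per the file headers, 2.1.0 per the submitters' processing notes), with a p cutoff of 1.00e-05. The deposited lists give the pileup signal at the summit, the fold enrichment over local input as a ratio, and −log10 p and q as the authors' MACS run made them. The headers state that q was not calculated, although the deposited column holds positive values. These values depend on each library's tags and were used to rank and describe peaks within a list. There were exceptions: equal cutoffs of fold and q were set on both lists to recompute shares and overlaps. The local background of the Gm16103 peak is also given for both. The deposited annotation tables, made with a tool not named in any source used, give each peak a class and a name. Their starts were 1 bp higher, and positions of the peak lists are printed.

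Members were peaks with a Gm number or a name ending in Rik. Names were matched to RefSeq (GRCm38.p6) by symbol, then by a synonym held by 1 gene of that chromosome. Strand came from the promoter table, and 328 genes placed below 3 Mb were left out. A gene was nested when it lay wholly inside a protein-coding gene, and apart when it overlapped none. Overlap needed 1 bp. Covered bases of a name are the summed widths of its peaks. Covered bases of a gene are the bases of its span under peaks of any name. Local background was (pileup + 1) divided by fold, less 1. Interval functions were tested on simulated data. The members and lists were chosen with earlier results of these data known. Named genes were the 10 names with most peaks, the 5 strongest and 5 widest peaks per library, the 10 largest and 5 smallest differences, the 5 names with most bases in 1 library alone, and 2 lists; the text gives a selection of them. Check genes, noncoding genes apart from coding genes, hairpins and promoter windows were added after values were seen, and 1 of the check genes is not reported here. Python 3.11.15, pandas 2.3.3 and scipy 1.17.1 were used.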

Additional observations from a re-analysis of the deposited data

How the results depend on the processing

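No paired analysis was possible because each genotype had 1 ChIP library; for the same reason no replicate could be left out. The counts hold only for the full lists and for names as annotated. Reduced to the number of WT peaks, the cKO list kept 5106 Gm and Rik peaks on 1658 names, 14.2% of genic peaks; 49.4% of them met a WT peak, and 75.5% of WT members met one of them. Reduced to the covered length of the WT list, it kept 662 peaks on 442 names (12.7%). Then 90.2% met a WT peak, 26.2% of WT members met one of them, and the median difference of covered bases was 730 bp (quartiles -209 and 2092) over 426 names. Only names with a peak left in both lists count there, 426 against 1492 in the full lists. WT names whose cKO peaks were all cut are left out, so this median does not show an excess in cKO at equal length. The cKO list exceeds the WT list in share of Gm and Rik peaks as deposited. Reduced by number its share (13.9 to 14.6) overlaps that of WT (13.4 to 14.1), and so does its share reduced by length (11.8 to 13.6). Keeping peaks on or within 1 kb of the named gene left 3119 cKO peaks on 1067 names (3.399%) and 1183 WT peaks on 585 names (3.30%), of which 28.5% (cKO) and 91.3% (WT) met a peak of the other library. A fold of at least 4 gave a share of 15.1% in cKO and 89.7% of WT members overlapped. A -log10 q of at least 5 gave 19.9% of cKO members overlapped. Asking for overlap of 50% of both peaks gave 6.43% in cKO and 18.5% in WT. The other 28 recomputed values stayed within 1.5 times for counts, inside the interval for shares, or inside the quartiles for the difference, and those of the WT list that do not involve the cKO list could not change when the cKO list was shortened. The share of matched peaks on the named gene stayed between 28.7% and 38.2% in cKO and 29.4% and 31.0% in WT in each setting but the one that requires nearness.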
